A study of Mus musculus with 8 samples.

Results

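The set covers 5 genes of the sodium-potassium ATPase (Na,K-ATPase) and its regulators in mouse breast tumors: the beta subunits Atp1b1, Atp1b2 and Atp1b3 and the FXYD regulators Fxyd3 and Fxyd5. Atp1b1 was chosen by its higher level after treatment in the contrast described here, and the other 4 entered as members of the same family. All 5 were found among the 54532 genes of the count table. Bulk RNA-seq was performed on 8 tumors from 8 mice, 4 given saline (the treatment label reads PBS control) and 4 given mAb-DXd/IMQ. The tumors carry the cell line label 4T1, a mouse triple-negative breast cancer line, and grew from 4T1-FLuc cells, its luciferase-bearing form, placed under the skin of immunocompetent female BALB/cJ mice that were 6 weeks old at injection. mAb-DXd/IMQ is a humanized anti-CD276 antibody that carries the topoisomerase I inhibitor DXd and the Toll-like receptor agonist IMQ. Mice of that group received 5 intravenous courses of 16 mg/kg, spaced 4 days apart. The saline mice are listed with the same 5 courses and the same interval of 4 days. Tumors of both groups were taken at the study endpoint. The comparison asks which tumor transcripts differ after the dual-payload conjugate. Sequencing depth lay between 34591912 and 69582375 total counts a tumor, with 49398150, 45019927, 56388627 and 69582375 counts in saline tumors 1 to 4 and 51625237, 46196237, 42965317 and 34591912 counts in mAb-DXd/IMQ tumors 1 to 4. Levels are given in CPM, a gene's count scaled by the size of its library. By counting error alone, a gene at 0 could stand as high as 3 counts, or 0.0439 CPM in the deepest tumor and 0.0843 CPM in the shallowest.

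The Na,K-ATPase moves sodium out of the cell and potassium into it against their gradients, using ATP. Its alpha subunit carries out catalysis and ion transport, its beta subunit is a glycoprotein needed for folding and delivery to the plasma membrane, and FXYD proteins are small membrane proteins that associate with the pump and tune its kinetics. In epithelia the pump sits at the basolateral membrane and drives sodium-coupled transport, and beta subunits there also take part in adhesion between neighboring cells.

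Promoter sequences are shown for the beta subunit whose level differed most between the groups and for the most abundant beta subunit, so that their start regions can be read side by side. They come from RefSeq (GRCm38.p6), each running from 250 bases before to 50 bases after the start site, and 4 of the 5 members had a window. Atp1b2 had none. The Atp1b1 window lies at chr1:164458306-164458605 and the Atp1b3 window at chr9:96364382-96364681, both on the minus strand and written 5′ to 3′. Capitals mark matches, on either strand, to the TATA box TATAAA, the TATA-like run TATATA, the GC box GGGCGG, the CCAAT box, the E-box CACGTG or the core of an interferon response element, which is GAAA, any 2 bases and again GAAA.
Atp1b1: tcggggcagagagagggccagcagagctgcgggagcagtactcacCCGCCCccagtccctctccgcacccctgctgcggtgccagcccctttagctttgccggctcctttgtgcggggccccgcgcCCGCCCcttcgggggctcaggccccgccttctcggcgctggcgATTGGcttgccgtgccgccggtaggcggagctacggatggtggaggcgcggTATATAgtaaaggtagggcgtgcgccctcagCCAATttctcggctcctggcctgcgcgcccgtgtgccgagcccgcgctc
Atp1b3: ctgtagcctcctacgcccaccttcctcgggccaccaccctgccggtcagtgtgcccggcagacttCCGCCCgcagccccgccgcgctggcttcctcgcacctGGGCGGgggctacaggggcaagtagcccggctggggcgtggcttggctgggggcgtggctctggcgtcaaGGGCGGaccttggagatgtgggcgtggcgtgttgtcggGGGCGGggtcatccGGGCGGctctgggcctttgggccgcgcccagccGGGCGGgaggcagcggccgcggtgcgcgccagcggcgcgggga

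The Atp1b1 window held 1 TATATA run, starting at position -30 from the start site, 2 GC boxes and 2 CCAAT matches, of which the first began at -81. Among 32817 promoter windows of the same length, 5.67% held TATATA, 35.6% GGGCGG and 37.4% CCAAT. The Atp1b3 window held 6 GC boxes between -185 and 7 and none of the other motifs. A second Atp1b3 window, at chr9:96363666-96363965, held 1 CACGTG match, a motif present in 7.15% of all windows. Fxyd3 had 1 CCAAT match and Fxyd5 none of the motifs searched, and none of the 4 genes held TATAAA (13.6% of all windows) or the interferon response element core (3.43%). GC content was 71% in the Atp1b1 window and 76% in the Atp1b3 window shown, against 55% for Fxyd3, 57.3% for Fxyd5 and a median of 52.7% over all windows. A match is a description of the letters and not a binding site.

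Atp1b1 encodes the beta subunit that predominates in many epithelia. It was low in saline tumors, at 3.79, 5.26, 4.89 and 5.02 CPM in tumors 1 to 4, and stood at 12.1, 16.1, 14.3 and 17.5 CPM in mAb-DXd/IMQ tumors 1 to 4. Every treated tumor lay above every saline tumor. The means were 4.74 ± 0.65 and 15.01 ± 2.35 CPM (SD, n = 4), a 3.16-fold difference. On the log2 scale the difference was 1.66 with a standard error of 0.18, which ranked 177 from the top among the 18511 genes that passed the low-count filter. Because Atp1b1 was chosen for this difference, its values are a description and no p-value is given. Raw counts behind these values of Atp1b1 ran from 187 to 343 in saline tumors and from 587 to 752 in treated tumors.

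**Figure D1:**
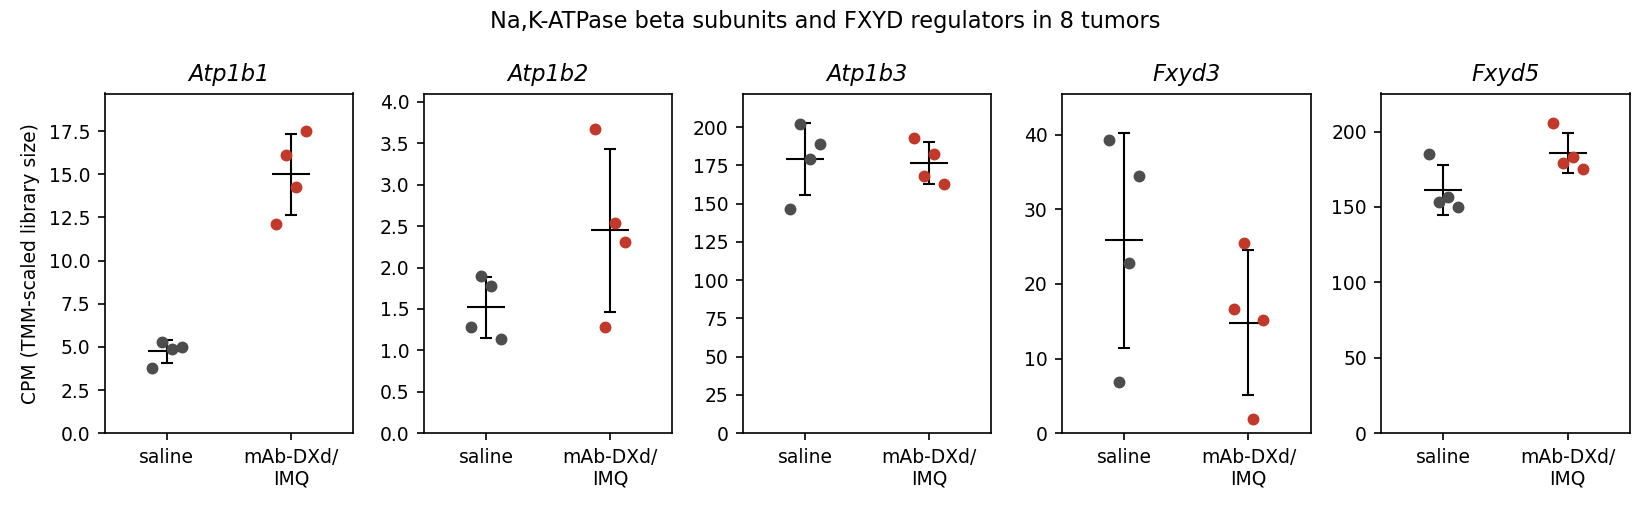
Expression of the 5 genes in each tumor, in CPM on a linear axis that starts at 0. Points are tumors, horizontal bars are group means and whiskers are SD (n = 4). Atp1b1 runs from 3.79 to 5.26 CPM in saline and from 12.1 to 17.5 CPM in mAb-DXd/IMQ tumors, while the groups overlap for the other 4 genes.

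Across all 18511 genes tested, 5.97% were higher in every treated tumor than in every saline tumor and 7.1% were lower in every treated tumor. By edgeR's quasi-likelihood F-test, 197 genes (1.06%) passed a Benjamini-Hochberg adjusted p below 0.05 together with an absolute log2 fold change above 0.58. Of them, 101 (0.546%) were higher and 96 (0.519%) lower after treatment. DESeq2 called 4.25% of the same genes and limma-voom 0.94%. The split was 145 higher and 73 lower with upper-quartile scaling, and 73 higher and 44 lower with a correction for gene length. Leaving out a single tumor moved the count from 197 to 111 without saline 2, 10 without saline 3, 11 without saline 4, 76 without mAb-DXd/IMQ 2, 88 without mAb-DXd/IMQ 3 and 12 without mAb-DXd/IMQ 4. Results of this contrast were known when the gene family was proposed, so the adjusted p-values of the other members are not independent evidence.

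Atp1b1 lies at chr1:164437109-164458355 on the minus strand (ENSMUSG00000026576), with coordinates as the count table gives them. The other members lie on the same strand, Atp1b2 (ENSMUSG00000041329) at chr11:69599736-69605942, Atp1b3 (ENSMUSG00000032412) at chr9:96332655-96364442, Fxyd3 (ENSMUSG00000057092) at chr7:31068172-31076704 and Fxyd5 (ENSMUSG00000009687) at chr7:31032722-31042481. The end of the last exon of Atp1b1 overlaps Nme7, a gene on the opposite strand. Of 3081 exonic bases of Atp1b1, 575 (18.7%) are also exonic in Nme7, which had 8470 counts over the 8 tumors against 3653 for Atp1b1. The strand setting of the counting is not given in the sources used here, and the library protocol names both kinds of kit, so reads from the shared bases cannot be told apart. Nme7 itself averaged 20.4 CPM in saline and 22.4 CPM in treated tumors (log2 fold change 0.13, SE 0.15).

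Atp1b2, the beta subunit first known as an adhesion molecule on glia, was the least abundant of the 5 members. It measured 1.28, 1.90, 1.77 and 1.14 CPM in saline tumors 1 to 4 and 3.67, 1.28, 2.53 and 2.30 CPM in treated tumors 1 to 4. The groups overlapped: mAb-DXd/IMQ tumor 2 lay within the saline range and the other 3 treated tumors above it. The log2 fold change of 0.69 (SE 0.34) did not pass the test (edgeR adjusted p = 0.308; 3 of 4 treated tumors above the saline mean). It was 0.42 without mAb-DXd/IMQ 1 and ran from 0.42 to 0.90 over the omissions of 1 tumor.

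Atp1b3, the broadly expressed beta subunit that also occurs on leukocytes, was present at 147, 202, 179 and 189 CPM in saline tumors and at 193, 168, 183 and 163 CPM in treated tumors. All 4 treated tumors fell inside the saline range. The mean was 179 ± 23.7 CPM in saline and 177 ± 13.7 CPM in treated tumors (SD, n = 4). The log2 difference of -0.02 (SE 0.12; edgeR adjusted p = 0.953; 2 of 4 treated tumors below the saline mean) changed sign under upper-quartile scaling (0.027) and when single tumors were left out (-0.11 to 0.04). Of 12 lists of cell type markers, 2 ranked the tumors within each group in the same order as Atp1b3 CPM, the 6 macrophage and the 5 endothelium markers. The macrophage sum was 698, 2272, 1236 and 1440.4 CPM in saline tumors 1 to 4 and 1293, 1052, 1117 and 847 CPM in treated tumors 1 to 4, with C1qa the most abundant and none of the 6 at 0. In bulk tumors fewer cells of a type and less RNA per cell cannot be told apart, and the part of macrophage or endothelium content in the Atp1b3 level was not tested.

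Compared per length, the beta subunits differed widely in level. RPKM, which is CPM divided by gene length in kilobases, averaged 74.98 ± 9.91 for Atp1b3, 1.54 ± 0.21 for Atp1b1 and 0.373 ± 0.090 for Atp1b2 in saline tumors (SD, n = 4). In treated tumors the means were 73.9 ± 5.74, 4.87 ± 0.76 and 0.599 ± 0.240 RPKM. The ranges of the 3 beta subunits did not overlap within either group, so their order was the same in both. In saline tumors Atp1b3 exceeded Atp1b1 48.8 ± 1.19 times, and in treated tumors 15.6 ± 3.78 times.

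Of the summed RPKM of the 3 beta subunits, Atp1b1 made up 1.96, 1.97, 2.06 and 2.01% in saline tumors 1 to 4. In mAb-DXd/IMQ tumors 1 to 4 the share was 4.59, 6.88, 5.67 and 7.65%. The saline tumors were nearly equal in this share and the treated tumors spread more widely, with no overlap. Atp1b3 still held 91.6 to 94.4% of the beta total in treated tumors, against 97.4 to 97.6% in saline tumors. The summed beta level itself was 76.9 ± 10.2 RPKM in saline and 79.4 ± 5.17 RPKM in treated tumors, so the groups overlapped in total beta transcript. These shares use the contrast by which Atp1b1 was chosen and carry no test.

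**Figure D2:**
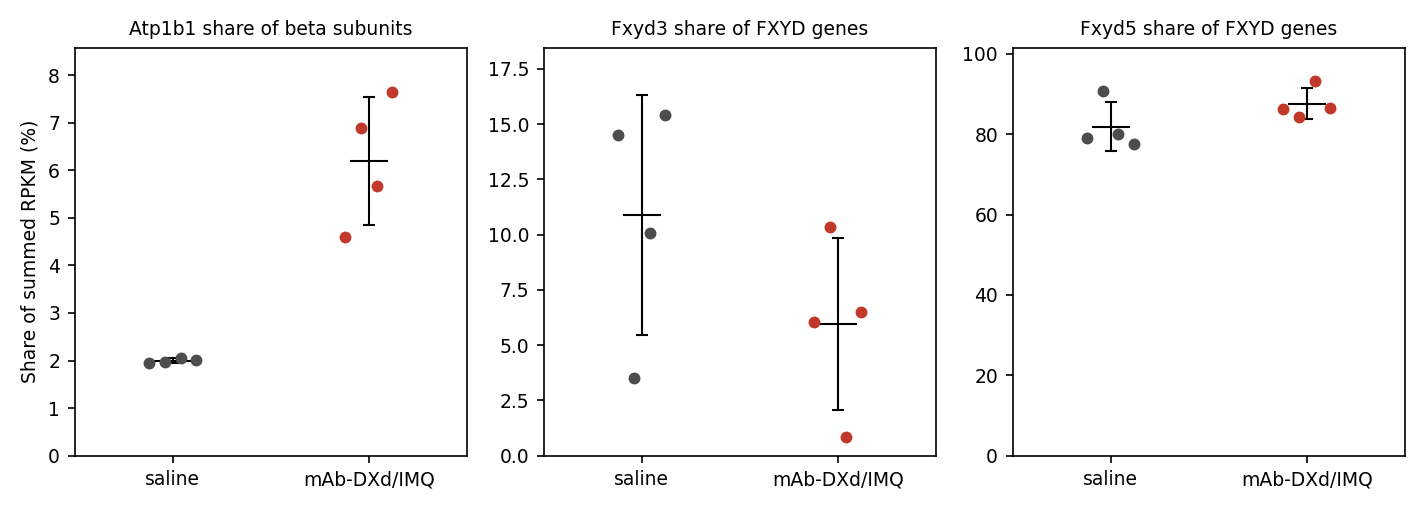
Share of Atp1b1 in the summed RPKM of the 3 beta subunits, and shares of Fxyd3 and Fxyd5 in the summed RPKM of Fxyd1, Fxyd3, Fxyd5 and Fxyd6. Points are tumors, bars are group means, whiskers are SD (n = 4) and axes start at 0. The Atp1b1 share does not overlap between groups (2.06% at most in saline, 4.59% at least in treated), whereas both FXYD shares overlap.

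Fxyd3, an FXYD regulator found in epithelial and breast cancer cells, varied most among the members. It measured 39.3, 6.88, 22.8 and 34.4 CPM in saline tumors 1 to 4 and 16.7, 25.4, 1.97 and 15.2 CPM in treated tumors 1 to 4. Saline tumor 2 and mAb-DXd/IMQ tumor 3 were the low tumors of their groups, and the ranges overlapped. The coefficient of variation was 55.8% in saline and 65.4% in treated tumors, against 13.7 and 15.6% for Atp1b1. The log2 fold change of -0.80 (SE 0.63) did not pass the test (edgeR adjusted p = 0.528; 4 of 4 treated tumors below the saline mean). Leaving out 1 tumor moved it between -1.20 and -0.44, with -0.53 without saline 1 and -0.44 without mAb-DXd/IMQ 3.

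Some epithelial transcripts were lowest in the same tumors and others were not. Of the 10 tested simple epithelium markers, 7 had their lowest saline value in saline tumor 2 and 3 elsewhere (Krt8, Krt18 and Cldn4), and 7 had their lowest treated value in mAb-DXd/IMQ tumor 3 and 3 elsewhere (Krt7, Krt8 and Krt18). Epcam, an epithelial surface protein, was at 447, 193, 413 and 442 CPM in saline tumors and 701, 607, 295 and 428 CPM in treated tumors, lowest in the same tumors, and was named after its values were seen. The summed CPM of all 11 listed markers was 2944, 2167, 2999 and 2734 in saline tumors and 4225, 3282, 2437 and 2497 in treated tumors, with Krt18 the most abundant and Cldn3 at 0.257 CPM or less. The part of epithelial content in the Fxyd3 level was not tested. Fxyd3 shares 42.5% of its 4850 exonic bases with Lgi4 on the opposite strand. Over the 8 tumors Lgi4 had 310 counts and Fxyd3 8493, of which 90 were in mAb-DXd/IMQ tumor 3, and the part of Lgi4 reads in the Fxyd3 level was not tested.

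Fxyd5, also called dysadherin, is an FXYD regulator known for lowering cell adhesion through E-cadherin and through the beta subunit. It was found at 185, 153, 156 and 150 CPM in saline tumors 1 to 4 and at 206, 179, 183 and 175 CPM in treated tumors 1 to 4. Saline tumor 1 was the high saline tumor and lay above 3 of the 4 treated tumors, so the groups overlapped. The log2 fold change was 0.21 (SE 0.11) and did not pass the test (edgeR adjusted p = 0.337; 4 of 4 treated tumors above the saline mean). None of the 4 members other than Atp1b1 passed by edgeR (1.06% over all genes tested), DESeq2 (4.25%) or limma-voom (0.94%). At an unadjusted edgeR p below 0.05 were 0 of the 4, beside 18.9% of all genes tested. All 5 members passed the low-count filter.

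Per length, Fxyd5 was the most abundant FXYD gene, at 38.5 ± 3.90 RPKM in saline and 44.3 ± 3.22 RPKM in treated tumors (SD, n = 4). It made up 79.2, 90.9, 80.2 and 77.6% of the summed RPKM of Fxyd1, Fxyd3, Fxyd5 and Fxyd6 in saline tumors 1 to 4 and 86.3, 84.4, 93.2 and 86.4% in treated tumors 1 to 4. Its share was highest in the tumors with the lowest Fxyd3, which enters the same sum, so that a low Fxyd3 by itself raises the Fxyd5 share. The Fxyd3 level was 5.33 ± 2.97 RPKM in saline and 3.06 ± 2.00 RPKM in treated tumors.

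Ordered by RPKM, the members ran Atp1b3, Fxyd5, Fxyd3, Atp1b1 and Atp1b2 in saline tumors. In treated tumors Atp1b1 stood before Fxyd3. Atp1b1 and Fxyd3 overlapped in both groups, with Fxyd3 spanning 1.42 to 8.10 RPKM and Atp1b1 1.23 to 1.71 RPKM in saline tumors. Fxyd3 and Atp1b2 also overlapped in treated tumors. Atp1b3 and Fxyd5 did not overlap with each other or with any other member in either group. The mean RPKM of Atp1b1 exceeded that of 34.7% of tested genes in saline tumors and of 54.6% in treated tumors, while Atp1b3 exceeded 96.6 and 96.5%.

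**Figure D3:**
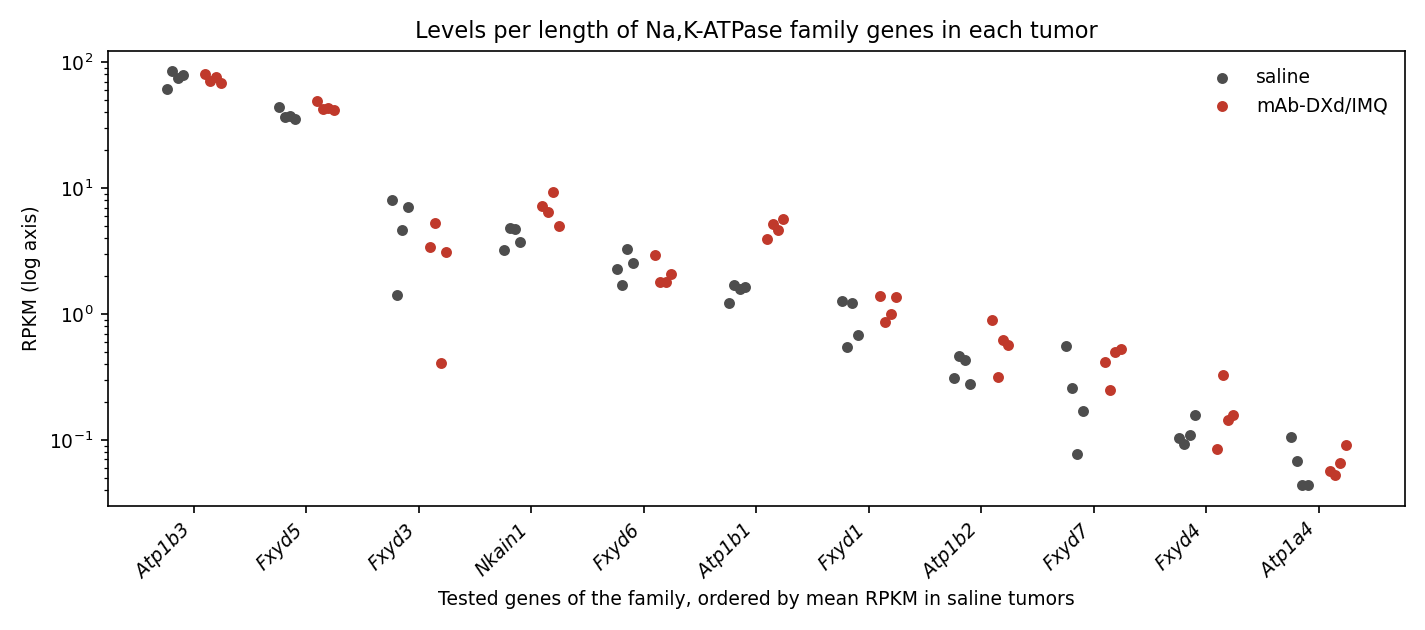
Levels per length (RPKM, log axis) of 11 tested genes of the Na,K-ATPase family in each tumor, ordered by the saline mean. Dark grey points are saline tumors and red points are mAb-DXd/IMQ tumors (n = 4 each). Atp1b3 and Fxyd5 lie above the other genes shown in both groups, and Atp1b1 moves from 1.54 to 4.87 RPKM on average.

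Of the other genes of the family, 11 are described here, of which 6 passed the low-count filter. None passed both thresholds by edgeR (1.06% over all genes) or limma-voom (0.94%), whereas DESeq2 called 1 (Nkain1), beside 4.25% of all genes. Of the 6, 1 had an unadjusted edgeR p below 0.05, as had 3503 of all 18511 genes tested (18.9%). Their median log2 fold change was 0.46, beside 0.02 for all genes tested. Nkain1, 1 of the 6, was higher in every treated tumor than in every saline tumor, which holds for 5.97% of all genes.

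Nkain1, a membrane protein that binds the beta subunit encoded by Atp1b1, measured 4.56, 6.91, 6.81 and 5.31 CPM in saline and 10.3, 9.29, 13.3 and 7.14 CPM in treated tumors. The gap between the groups was narrow, with mAb-DXd/IMQ tumor 4 closest to the saline tumors. The log2 fold change of 0.76 (SE 0.23) did not pass the test (edgeR adjusted p = 0.110; 4 of 4 treated tumors above the saline mean). By DESeq2 the adjusted p of Nkain1 was 0.0210, the lowest of 17 alternatives, and the highest was 0.269.

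The remaining tested genes among the 11 did not pass. Fxyd1, or phospholemman, averaged 2.28 CPM over the 8 tumors (log2 fold change 0.31, SE 0.33, edgeR adjusted p = 0.655, 3 of 4 treated tumors above the saline mean), and Fxyd6 averaged 9.47 CPM (-0.19, SE 0.24, edgeR adjusted p = 0.715, 3 of 4 below). The Fxyd1 value was 0.50 without saline 1, 0.47 without saline 3, 0.13 without saline 2, 0.19 without saline 4 and 0.21 without mAb-DXd/IMQ 1. For Fxyd6 it was -0.33 without saline 2, -0.01 without saline 3, -0.38 without mAb-DXd/IMQ 1, -0.11 without mAb-DXd/IMQ 2 and -0.11 without mAb-DXd/IMQ 3, so the size of both differences changed with single tumors. Low genes were Atp1a4 at 0.242 CPM, Fxyd4 at 0.288 CPM and Fxyd7 at 0.239 CPM on average, and in each the groups overlapped. Atp1b4 (0.0851 CPM), Fxyd2 (0.177 CPM), Nkain2 (0.0350 CPM), Nkain3 (0.0819 CPM) and Nkain4 (0.00448 CPM) were too low to test. So were 3 relatives that form or assemble the H,K-ATPase, Atp4a at 0.0251 CPM, Atp4b at 0.0109 CPM and Atp12a at 0.0284 CPM.

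**Figure D4:**
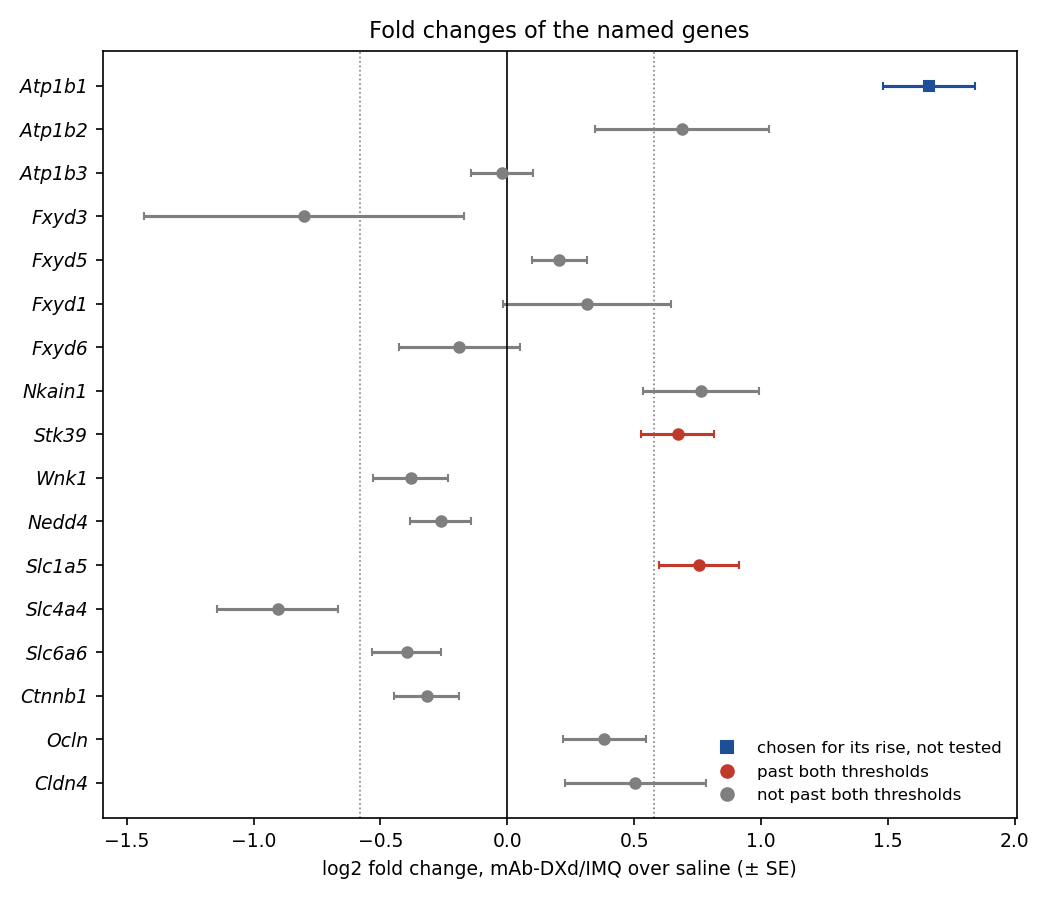
Log2 fold change of mAb-DXd/IMQ over saline tumors with its standard error for the members, Fxyd1, Fxyd6 and Nkain1 and the named genes of the kinase, ion route and junction lists. Dotted lines mark the fold threshold of 0.58 on either side of 0. Red points passed both thresholds (Stk39 and Slc1a5), grey points did not, and the blue square is Atp1b1, which was chosen for its rise and not tested.

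Kinases and ligases that act on the pump or on sodium and potassium transport formed a list of 9 genes, all tested, of which edgeR called 1 (1.06% over all genes tested), with 2 at an unadjusted p below 0.05 beside 18.9% of all genes tested. DESeq2 called 1 (4.25% over all genes) and limma-voom 0 (0.94%), and the median log2 fold change was 0.03. Stk39, the kinase SPAK that regulates cation-chloride cotransporters, rose from 33.2, 27.8, 37.3 and 30.6 CPM in saline tumors to 65.2, 46.5, 49.1 and 44.8 CPM in treated tumors, without overlap, as did 5.97% of all genes. Its log2 fold change of 0.67 (SE 0.14) passed narrowly (edgeR adjusted p = 0.04995). The call was lost in 12 of 17 alternatives, and over all 17 the adjusted p ran from 0.00234 to 0.156 and the log2 fold change from 0.54 (without mAb-DXd/IMQ 1, under the fold threshold) to 0.75. It was 0.67 by limma-voom and 0.70 with the length correction. Among the 12 were limma-voom (adjusted p = 0.0551), the length correction (0.0504) and each omission of 1 tumor: 0.0714 without saline 1, 0.103 without saline 2, 0.0874 without saline 3, 0.156 without saline 4, 0.0569 without mAb-DXd/IMQ 1, 0.0813 without mAb-DXd/IMQ 2, 0.0724 without mAb-DXd/IMQ 3 and 0.0915 without mAb-DXd/IMQ 4. Wnk1, which activates Stk39, ran from 377 to 453 CPM in saline and from 241 to 386 CPM in treated tumors (-0.38, SE 0.15, edgeR adjusted p = 0.200, 4 of 4 below the saline mean). The ubiquitin ligase Nedd4 ran from 659 to 732 CPM and from 486 to 616 CPM (-0.26, SE 0.12, edgeR adjusted p = 0.271), so that it was lower in every treated tumor, as were 7.1% of all genes. With the length correction the log2 fold change shrank to -0.21 for Wnk1 and -0.13 for Nedd4. Over all genes tested, longer genes tended to lower log2 fold changes (Spearman rho = -0.212, and -0.0279 after the correction).

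Routes of sodium entry and potassium exit, whose load the pump balances, were followed in 27 genes, 24 of them tested. By edgeR 1 passed (1.06% over all genes), by DESeq2 2 (4.25%) and by limma-voom 0 (0.94%), with 5 at an unadjusted edgeR p below 0.05 (18.9% over all genes) and a median log2 fold change of 0.09. Slc1a5, a sodium-dependent exchanger of glutamine and other neutral amino acids, rose from 45.5, 54.1, 56.5 and 45.8 CPM in saline tumors to 70.7, 73.6, 114 and 83.1 CPM in treated tumors, without overlap, as did 5.97% of all genes. Its log2 fold change was 0.76 (SE 0.16, edgeR adjusted p = 0.0458). The call was lost in 11 of 17 alternatives, and over all 17 the adjusted p ran from 0.0014 to 0.155 and the log2 fold change from 0.59 to 0.84. It was 0.74 by limma-voom and 0.77 with the length correction. Among the 11 were limma-voom (adjusted p = 0.0512), the length correction (0.0530) and 7 of 8 omissions of 1 tumor: 0.0744 without saline 1, 0.0808 without saline 2, 0.0996 without saline 3, 0.155 without saline 4, 0.0669 without mAb-DXd/IMQ 2, 0.0596 without mAb-DXd/IMQ 3 and 0.111 without mAb-DXd/IMQ 4.

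Slc4a4, a sodium bicarbonate cotransporter, was at 37.8, 82.1, 48.4 and 65.3 CPM in saline and at 31.2, 37.6, 21.3 and 34.7 CPM in treated tumors. The groups did not overlap, as for the 7.1% of genes that were lower in every treated tumor, but saline tumor 1 and mAb-DXd/IMQ tumor 2 were nearly equal. The log2 fold change of -0.91 (SE 0.24) missed the adjusted threshold by edgeR (adjusted p = 0.0798) and passed it by DESeq2 (adjusted p = 0.00815), without a low-count filter (adjusted p = 0.0368) and without saline tumor 1 (adjusted p = 0.0456), with 0.221 the highest of 17 alternatives. Slc6a6, the taurine transporter, ran from 380 to 481 CPM in saline and from 271 to 387 CPM in treated tumors (-0.40, SE 0.14, edgeR adjusted p = 0.151, 4 of 4 below the saline mean). With the length correction the log2 fold change was -0.76 for Slc4a4 (edgeR adjusted p = 0.151) and -0.29 for Slc6a6 (edgeR adjusted p = 0.261).

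Epithelial junction genes were included because beta subunits and Fxyd5 bear on adhesion. Of 10 listed genes 9 were tested. None passed both thresholds by edgeR (1.06% over all genes), DESeq2 (4.25%) or limma-voom (0.94%). At an unadjusted edgeR p below 0.05 were 2, beside 18.9% of all genes, and the median log2 fold change was 0.02, beside 0.02 for all genes tested. Cdh1, or E-cadherin, measured 536, 191, 418 and 352 CPM in saline and 424, 423, 319 and 354 CPM in treated tumors and was named after its values were seen. The lowest p-values of the list belonged to Ctnnb1 (-0.32, SE 0.13, edgeR adjusted p = 0.214), Ocln (0.38, SE 0.16, edgeR adjusted p = 0.238) and Cldn4 (0.51, SE 0.28, edgeR adjusted p = 0.356). Without mAb-DXd/IMQ 1 the value of Ocln was 0.24 and that of Cldn4 0.24. The direction was shown by 4 of 4 treated tumors for Ctnnb1 and by 3 of 4 for Ocln and Cldn4, and all 3 genes overlapped between the groups.

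Among 12 lists of cell type markers, those of T cells and neutrophils held genes past both thresholds by edgeR, all lower after treatment. Of 8 T cell markers 3 fell by edgeR, Cd4 (log2 fold change -1.91, SE 0.25, adjusted p = 0.0201), Cd8a (-1.22, SE 0.17, adjusted p = 0.0201) and Cd2 (-1.44, SE 0.30, adjusted p = 0.0458), each lower in every treated tumor. Over all genes tested 0.519% passed as lower, 7.1% were lower in every treated tumor and 18.9% had an unadjusted edgeR p below 0.05, which 8 of 8 T cell and 4 of 5 neutrophil markers had. DESeq2 called 6, beside 1.89% of all genes as lower, and limma-voom 3, beside 0.475%. The summed T cell level was 62.1, 94.1, 90.6 and 81.7 CPM in saline and 47.3, 41.6, 24.7 and 37.8 CPM in treated tumors, without overlap, and Cd8a was the most abundant. The count of T cell markers past both thresholds was 0 without saline 3, 0 without saline 4 and 0 without mAb-DXd/IMQ 4. Of 5 neutrophil markers, Csf3r fell (log2 fold change -0.80, SE 0.16, edgeR adjusted p = 0.0402, lower in every treated tumor), while DESeq2 called 3 and limma-voom 1. Their sum was 225, 84.9, 92.4 and 125 CPM in saline and 33.0, 49.4, 50.8 and 67.1 CPM in treated tumors, with S100a9 the most abundant. No listed marker of either type was at 0 in every tumor, and the part of these cell types in the Atp1b1 difference was not tested.

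**Figure D5:**
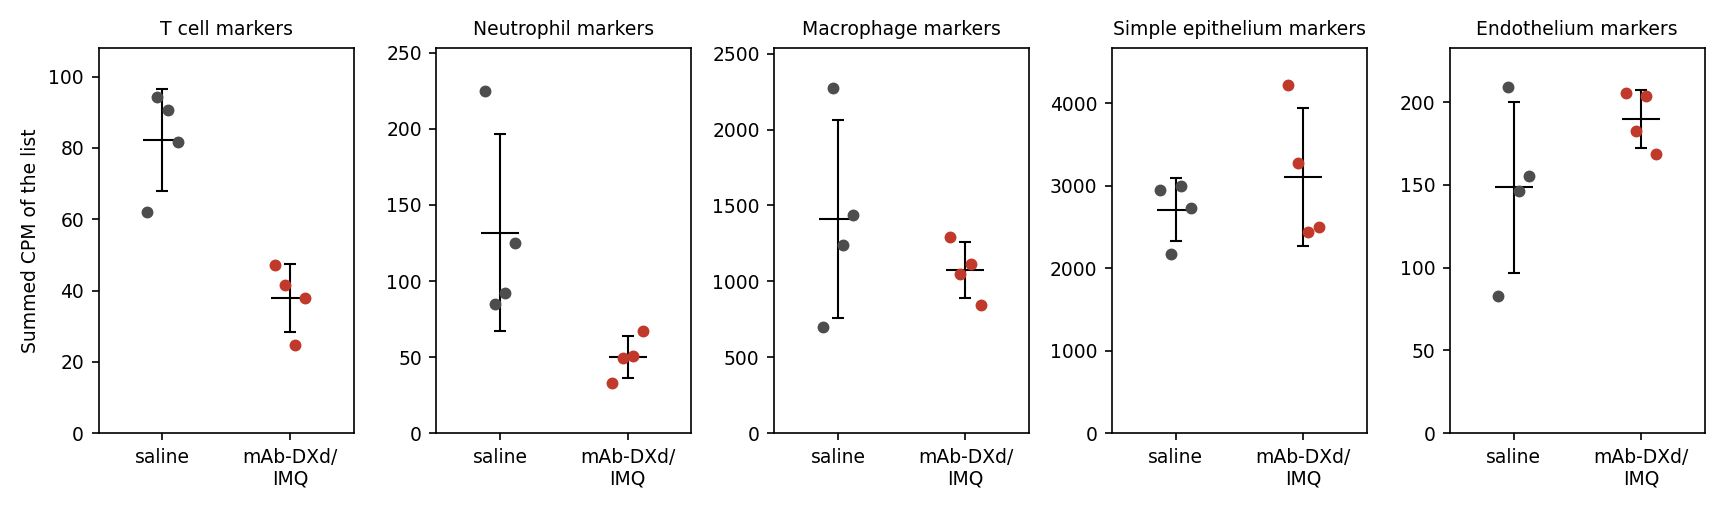
Summed CPM of 5 cell type marker lists in each tumor, on axes that start at 0. Points are tumors, bars are group means and whiskers are SD (n = 4). T cell sums (62.1 to 94.1 CPM in saline, 24.7 to 47.3 CPM in treated) and neutrophil sums do not overlap between the groups, and the other 3 lists do.

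The other 10 lists held no gene past both thresholds by edgeR (1.06% over all genes). Over tested genes the median log2 fold change was positive for epidermis (1.04), smooth muscle and pericytes (0.74) and nerve and glia (0.66). So it was for endothelium (0.43) and simple epithelium (0.29). It was negative for fibroblasts (-0.06), skeletal muscle (-0.22), macrophages (-0.45), adipocytes (-0.63) and B and plasma cells (-3.03). The part of these types in the Atp1b1 difference was not tested. The 5 B cell and plasma cell markers summed to 2.03, 8.80, 1.97 and 34.1 CPM in saline and 1.09, 1.33, 1.75 and 0.871 CPM in treated tumors, with Jchain the most abundant, and no treated tumor reached the saline tumors. Endothelium markers summed to 82.9 to 209 CPM in saline and 168 to 205 CPM in treated tumors, and fibroblast markers to 2795 to 7061 CPM and 2818 to 7501 CPM. Epidermis markers were highest in mAb-DXd/IMQ tumor 2, at 532 CPM, against 34.4 to 225 CPM in the other tumors. Skeletal muscle markers ranged from 62.7 to 503 CPM over the 8 tumors, nerve and glia markers from 53.0 to 69.6 CPM, smooth muscle and pericyte markers from 70.2 to 211 CPM and adipocyte markers averaged 23.8 CPM in saline and 22 CPM in treated tumors. The most abundant gene was Pecam1 in the endothelium list, Col1a1 for fibroblasts, Krt14 for epidermis, Acta1 for skeletal muscle, Mbp for nerve and glia, Acta2 for smooth muscle and pericytes and Fabp4 for adipocytes.

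At an unadjusted edgeR p below 0.05 these lists held 2 of 3 tested B cell and plasma cell, 4 of 6 nerve and glia, 1 of 6 macrophage, 1 of 5 endothelium, 1 of 6 fibroblast and 2 of 10 simple epithelium genes, and 0 genes in the other 4, where 18.9% is the share over all genes. DESeq2 called 1 gene each (4.25% over all genes) in the B cell and plasma cell, macrophage and endothelium lists and 0 in the rest. By limma-voom 0 were called in all 10 (0.94% over all genes).

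The tested genes most like each member over the 8 tumors were taken by Pearson's r of log2 CPM among 11651 genes averaging at least 5 CPM. For Atp1b1 they were Slc30a6 (r = 0.984), Tmem39a (r = 0.957) and Terf1 (r = 0.955), with r = 0.846, 0.462 and 0.307 after each group's mean was subtracted. For Atp1b3 they were Rgs10 (r = 0.996), Ncf4 (r = 0.977) and Ly86 (r = 0.968), and the group-centred values were 0.996, 0.977 and 0.971. Likeness to Atp1b1 thus rested largely on the difference between the groups for Tmem39a and Terf1, and likeness to Atp1b3 on differences among tumors of the same group.

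For Fxyd3 the closest genes were Ephb4 (r = 0.977), Trpt1 (r = 0.972) and Ccdc120 (r = 0.970), and group-centred values were 0.979, 0.980 and 0.973. For Fxyd5 they were Rab3ip (r = 0.959), Abhd6 (r = 0.956) and Plin2 (r = 0.954), and for Atp1b2 Cldnd1 (r = 0.963), Fez2 (r = 0.948) and Ssna1 (r = 0.938). All r values are descriptions over the same 8 libraries and have no p-value.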

How the data were processed

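Poly-A RNA of 8 tumors was made into libraries and sequenced by Novogene. What the authors deposited is a table of raw counts, not normalized, with a length for each gene that served for RPKM. The submitters' processing notes name HISAT2, HISAT, TopHat2 and the build mm39 with no role given. The coordinates equal those of GENCODE M21 (GRCm38) in start and end for 98.3% of shared gene identifiers. The counting program, annotation release and strand setting are not given in the sources used here.

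Groups followed the sample labels. Genes were kept by edgeR's filterByExpr (minimum count 10, minimum total count 15), scaled by TMM and compared by the quasi-likelihood F-test without covariates, at the thresholds of the study's methods. Standard errors were the coefficient divided by the square root of F. CPM and RPKM used TMM-scaled library sizes. R 4.3.3, edgeR 4.0.16 (older than the study's), limma 3.58.1, DESeq2 1.42.0, Python 3.11.15, pandas 2.3.3 and matplotlib 3.10.9 were used, and the fit was tested on simulated data. There it called 51.5% of genes with a true absolute log2 fold change of 1 and 74% of those with 2. Of its calls, 3.2% were unchanged genes. A gene that did not pass may thus still differ. Tumors were compared pair by pair by their counts, and 0 were duplicates of another.

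The members and lists were chosen with earlier results of these data known. Some other genes of the family are not reported here. Named genes were the members, the other family genes that are reported and the 3 genes most like each member by r. In the kinase, ion route and junction lists they were those past the thresholds or, where fewer than 3 passed, the lowest p-values up to 3. In the marker lists they were those past the thresholds and the most abundant gene. Some simple epithelium markers were named for where they were lowest or for a low level, Epcam and Cdh1 after their values were seen. Nme7 and Lgi4 were named for shared exonic bases. Alternatives were RLE and upper-quartile scaling, other low-count filters, DESeq2, limma-voom, the replicate number as a block, a gene length correction by a spline with 5 degrees of freedom, the adjusted p alone, TPM for shares and leaving out each tumor.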

Additional observations from a re-analysis of the deposited data

How the results depend on the processing

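Atp1b1, chosen for its rise in this contrast, had log2 fold changes from 1.57 to 1.75 over 17 alternatives. Its groups did not overlap, so leaving out a tumor could not turn the sign. The range describes the size of the difference and is not evidence for it. The difference in the Atp1b1 share of beta transcript was 3.72 to 4.74 percentage points over the 8 omissions of 1 tumor, and TPM gives the same share as RPKM by construction. Atp1b2, Fxyd3 and Fxyd5 kept their sign and did not pass in any of 17 alternatives. Atp1b3, near 0, changed sign with upper-quartile scaling (0.0267) and ran from -0.11 to 0.04 when single tumors were left out, being positive without saline 2 (0.0404), saline 4 (0.0112), mAb-DXd/IMQ 2 (0.00108) or mAb-DXd/IMQ 4 (0.0237). Atp1a4 changed sign without saline 3 (-0.118), saline 4 (-0.116) or mAb-DXd/IMQ 4 (-0.147), over a range of -0.147 to 0.356. The causes were not tested.

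The count of 197 genes past both thresholds was 358 with no low-count filter, where more genes were tested, 787 with DESeq2 and 117 with the length correction. It ran from 10 to 203 when 1 tumor was left out: 111 without saline 2, 10 without saline 3, 11 without saline 4, 76 without mAb-DXd/IMQ 2, 88 without mAb-DXd/IMQ 3 and 12 without mAb-DXd/IMQ 4. Of 48 tested genes in the pathway lists, 2 passed, beside 1.06% of all genes tested. With DESeq2 4 passed (4.25% over all genes), with limma-voom 0 (0.94%) and with the length correction 0 (0.632%). When 1 tumor was left out, 0 to 1 passed, beside the 10 to 203 genes given above. Fits without 1 tumor have fewer samples, and the other causes were not tested.

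Tumors with the same number are from separate mice. Their deviations from the group means had r = -0.17, -0.055, 0.079 and -0.067. Between tumors with different numbers r ran from -0.10 to 0.18. Whether the numbers stand for a shared batch or order of handling was not tested. With the replicate block 14 genes passed, or 12 with the length correction added, and 0 genes of the pathway lists and 0 T cell markers in either. Depth limits untested genes with 3 counts or fewer in most tumors, such as Nkain2, Nkain4 and Atp4b.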
